A study of Mus musculus with 13 samples.

Results

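The genes described here are 9 that mark the resting, homeostatic astrocyte: Aldoc, Slc38a3, Slc39a12, Slc1a2, Slc1a3, Aqp4, Gja1, Glul and Gjb6. They were taken by symbol, with the lines of a symbol summed, from a table of 23238 symbols for hippocampus tissue and a table of 24542 symbols for cultured glia, and all 9 were found in both. Aldoc, Slc38a3 and Slc39a12 were chosen by their measured levels, which were lower in both glia cultures given Nurr1 and Foxa2 than in their control cultures, so that comparison is a description for them. The other 6 were named by symbol. RNA was sequenced from 13 mouse libraries. Of 7 hippocampus libraries from 3xTg mice, 4 came from mice given adeno-associated virus 9 (AAV9) with the genes Foxa2 and Nr4a2, the gene of Nurr1, called N+F here, and 3 came from mice given a control AAV9. 3xTg mice model Alzheimer disease with human amyloid precursor protein and tau transgenes driven by a Thy1 promoter, which is active in neurons, together with a mutant presenilin gene. All 7 libraries carry that background, and the labels also list amyloid beta (Aβ) as their treatment. The 6 culture libraries were glia of postnatal day 1 ICR pups, from hippocampus and from cortex. In each region 1 library had N+F lentivirus with Aβ (Aβ N+F), 1 had control lentivirus with Aβ (Aβ control) and 1 had control lentivirus without Aβ (untreated). The labels give no age for the 3xTg mice and do not say whether libraries came from separate animals or pooled pups, so the tissue p-values measure only the spread between these libraries, which may be technical.

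Astrocytes clear transmitter and ions from the space around synapses. Slc1a2 and Slc1a3 encode the glutamate transporters of astrocytes, Glul encodes glutamine synthetase, which turns that glutamate into glutamine, and Slc38a3 encodes a transporter that moves glutamine across the membrane. Aldoc encodes the brain isoform of the glycolytic enzyme aldolase. Slc39a12 encodes a zinc importer found mostly in brain, Aqp4 the water channel of the endfeet on blood vessels, and Gja1 and Gjb6 the connexins that couple astrocytes to each other. Nurr1 is a nuclear receptor and Foxa2 a forkhead factor, both known for their roles in midbrain dopamine neurons.

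The tissue libraries held 10194437 to 25139406 counts, with control library 1 the deepest, and the culture libraries held 52189025 to 78273121. In culture the delivered genes marked the N+F libraries. Foxa2 had 8482 counts in hippocampal and 1059 in cortical Aβ N+F glia and 0 in each of the other 4 libraries. Nr4a2 reached 488 CPM (counts relative to the library total) in hippocampal Aβ N+F glia, against 3.35 CPM in the Aβ control and 58.3 CPM in the untreated library. In cortical glia the Nr4a2 levels were 36.9, 5.14 and 19.0 CPM in the same order. In tissue Nr4a2 did not pass the test (log2 fold change -0.22 ± 0.24, SE, edgeR adjusted p = 0.872). Foxa2, too scarce there to be tested, had counts of 26, 5, 1 and 6 in N+F libraries 1 to 4, which are 2.55, 0.45, 0.088 and 0.489 CPM, against 5, 1 and 1 in control libraries 1 to 3, which are 0.199, 0.083 and 0.080 CPM. N+F libraries 1, 2 and 4 thus lay above every control, and N+F library 3 lay among them. Other libraries stood apart in their cell type markers, and those values are given beside the results they touch: the untreated cultures were rich in neuron and oligodendrocyte markers, and the cortical Aβ N+F culture in fibroblast collagens. Astrocyte markers were present in all 6 cultures, though not evenly. Aldh1l1, an astrocyte folate enzyme, lay at 307 to 501 CPM in the 4 Aβ cultures and at 68.8 and 101 CPM in the untreated hippocampal and cortical ones. S100b, a calcium-binding protein of astrocytes, lay at 2.86 to 13.3 CPM in the 4 Aβ cultures and at 116 and 130 CPM in the untreated hippocampal and cortical ones.

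Because forkhead factors and Nurr1 bind known short DNA motifs, the promoter windows of the members were read (250 bases before to 50 after a gene start, RefSeq, GRCm38.p6). Of the 9 members 7 had a window in that table, with 8 windows in all since Aldoc has 2; Slc38a3 and Aqp4 were not among them. The windows of Aldoc and Slc39a12 are shown, since these genes were among the 3 that had the lowest ratios shared by both N+F cultures. Capitals mark the forkhead letters TGTTTAC in the second Aldoc window, and no other motif letters searched for are in the windows shown.
Aldoc, chr11:78322823-78323122, plus strand: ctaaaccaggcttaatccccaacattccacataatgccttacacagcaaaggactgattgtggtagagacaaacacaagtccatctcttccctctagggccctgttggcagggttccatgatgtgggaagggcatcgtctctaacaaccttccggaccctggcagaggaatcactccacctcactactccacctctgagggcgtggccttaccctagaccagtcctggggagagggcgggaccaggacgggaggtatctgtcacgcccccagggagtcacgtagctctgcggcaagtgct
Aldoc, chr11:78323948-78324247, plus strand: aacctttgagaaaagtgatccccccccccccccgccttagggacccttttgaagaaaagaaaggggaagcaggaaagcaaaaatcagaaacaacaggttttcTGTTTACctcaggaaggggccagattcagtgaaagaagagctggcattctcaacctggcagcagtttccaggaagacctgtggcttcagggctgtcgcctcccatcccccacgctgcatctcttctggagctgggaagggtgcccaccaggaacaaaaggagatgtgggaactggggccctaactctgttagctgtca
Slc39a12, chr2:14388148-14388447, plus strand: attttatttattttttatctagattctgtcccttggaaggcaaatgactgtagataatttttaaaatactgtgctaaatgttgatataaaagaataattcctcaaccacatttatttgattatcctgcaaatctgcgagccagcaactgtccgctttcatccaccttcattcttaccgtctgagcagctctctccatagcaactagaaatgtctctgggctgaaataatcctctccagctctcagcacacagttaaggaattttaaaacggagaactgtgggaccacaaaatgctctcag
The TGTTTAC match starts 148 bases before that Aldoc start. Searched on both strands, TGTTTAC was in 1 of the 8 member windows and in 3.65% of all 32851 windows of the table. The forkhead letters TGTTTGC and the Nurr1 letters AAAGGTCA were in 0 of the 8, and in 5.07% and 1.51% of all windows. TGTTTAC and TGTTTGC differ in a single letter, so no site counts for both, and a match only says that the letters are there. The Slc39a12 window is the poorest of the 8 in G and C, at 38.0%, and the first Aldoc window holds 56.3%.

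In 3xTg hippocampus none of the 9 genes differed between N+F and control AAV9 past the test (edgeR quasi-likelihood test, Benjamini-Hochberg adjustment over 15523 genes, threshold 0.05). That count of 0 stands against 0.11% of all genes called, 0.00644% higher and 0.103% lower, and DESeq2 also called 0 of the 9. At an unadjusted p under 0.05 there was 1, Aqp4, against 8.46% of all genes. The N+F and control libraries overlapped for all 9, whereas they did not overlap for 8.11% of all genes. Of the fold changes 3 were positive and 6 negative, with a median of -0.04 on the log2 scale, and the median over all genes tested was -0.0044. Tissue levels below are CPM scaled by TMM, a correction for the makeup of each library. In such bulk samples a lower share of a cell type and less RNA per cell cannot be told apart.

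Among the transporters, Slc1a2 had 613, 550.2, 747 and 643 CPM in N+F libraries 1 to 4, against 701, 675 and 731 CPM in control libraries 1 to 3. The lowest level was in N+F library 2 and the highest in N+F library 3, with the controls between them (log2 fold change -0.14 ± 0.14, SE; edgeR adjusted p = 0.863). Slc1a3 had 158, 183, 150.45 and 153 CPM with N+F, against 167, 166 and 154 CPM in controls. All but N+F library 2 lay within a narrow band (log2 fold change -0.01 ± 0.12; edgeR adjusted p = 0.991). The glutamine transporter gene Slc38a3 had 32.4, 47.9, 35.7 and 35.9 CPM with N+F, against 36.9, 37.3 and 28.8 CPM in controls. Its highest value was again in N+F library 2 and its lowest in control library 3, and its log2 fold change of 0.14 ± 0.16 did not pass (edgeR adjusted p = 0.878); it was 0.013 without N+F library 2 and 0.028 without control library 3. The zinc importer gene Slc39a12 had 10.5, 7.69, 9.29 and 9.76 CPM with N+F, against 11.1, 10.9 and 8.69 CPM in controls. Here N+F library 2 was the lowest, and control library 3 the next (log2 fold change -0.14 ± 0.19; edgeR adjusted p = 0.906).

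Of the enzymes, Aldoc averaged 930.4 ± 104 CPM with N+F and 909.6 ± 84.3 CPM in controls (SD, n = 4 and 3). Its libraries ran from 807 to 1032 CPM with N+F and from 816 to 979 CPM in controls, so the N+F range enclosed the control range (log2 fold change 0.03 ± 0.14; edgeR adjusted p = 0.973). Glul averaged 674 ± 84.0 CPM with N+F (566 to 770.3) and 693 ± 92.4 CPM in controls (593 to 775), so its groups also overlapped (log2 fold change -0.04 ± 0.15; edgeR adjusted p = 0.969). Aldoc, Slc38a3 and Slc39a12, the genes picked for their lower level in N+F cultures, each had a tissue fold change within 1 SE of 0. So did Slc1a2, Slc1a3, Glul and Gjb6, but not Aqp4 and Gja1.

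Aqp4 had the largest tissue difference of the 9. It measured 50.7, 28.9, 50.8 and 44.6 CPM in the N+F libraries, against 79.7, 74.3 and 39.9 CPM in the controls. Control libraries 1 and 2 lay above all N+F libraries, and control library 3 lay among them. The log2 fold change was -0.57 ± 0.24, and Aqp4 did not pass the test (edgeR adjusted p = 0.544, unadjusted p = 0.0370). Without control library 3 the fold change was -0.82 (unadjusted p = 0.0020, adjusted p = 0.217), and without N+F library 2 it was -0.41 (adjusted p = 0.794). Gja1 had 87.1, 47.2, 81.9 and 77.2 CPM with N+F, against 85.0, 86.0 and 79.3 CPM in controls. A single library, N+F 2, lay apart from the other 6 (log2 fold change -0.19 ± 0.18, edgeR adjusted p = 0.854; without that library -0.02). Gjb6, the second connexin, had 15.9, 14.9, 18.9 and 20.4 CPM with N+F, against 15.5, 18.6 and 16.0 CPM in controls, and its fold change was 0.07 ± 0.16 (edgeR adjusted p = 0.949).

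**Figure D1:**
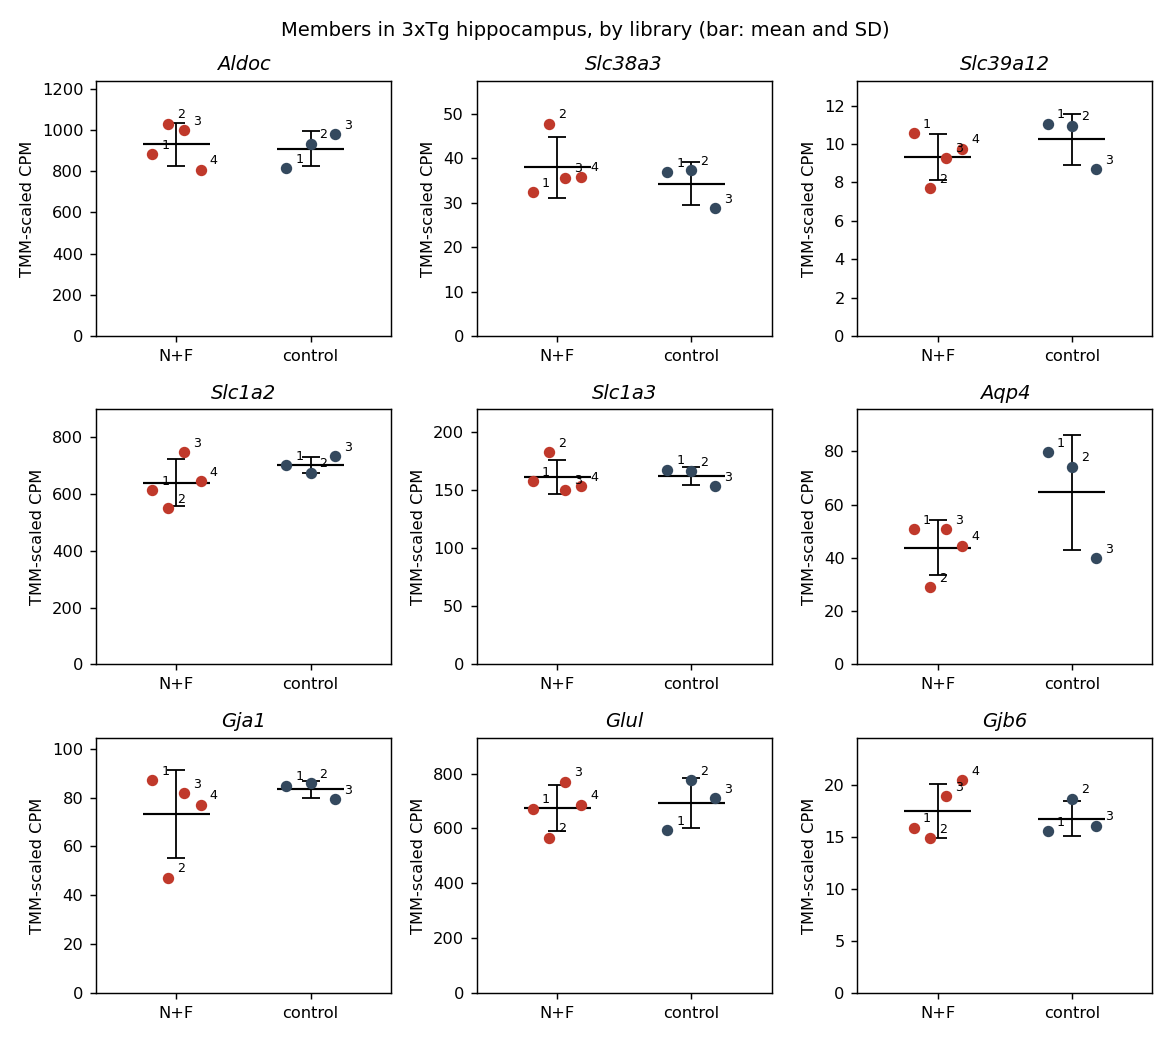
Level of each member (TMM-scaled CPM, axes from 0) in 3xTg hippocampus, with 1 point per library labelled by its number, N+F on the left and control AAV9 on the right, and bars for the mean and SD. The points of both groups overlap for all 9 genes, and N+F library 2 is the highest or the lowest point of every panel.

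A single library stood at an edge of the range of every member, with other libraries at the opposite edge. N+F library 2 held the highest or the lowest value of the 7 for all 9 members: the highest for Aldoc, Slc38a3 and Slc1a3, and the lowest for Slc39a12, Slc1a2, Aqp4, Gja1, Glul and Gjb6. Each other library was extreme for 1 or 2 members. Over all genes tested N+F library 2 was extreme for 30.9%, close to the 26.3 to 31.5% of the other libraries. Its members lay a median of 0.321 on the log2 scale from the median of the other 6 libraries, against 0.0925 to 0.152 in the other libraries. Over all genes that distance was 0.204 in N+F library 2 and 0.18 to 0.205 in the others. Of 30 other astrocyte homeostatic genes this library was extreme for 12, and control library 2 was extreme for 15. The library also had the smallest share of the ribosomal RNA precursor Rn45s, at 2.45% of counts against 4.40 to 5.70% in the others, and the lowest summed level of oligodendrocyte precursor markers, at 104 CPM against 132 to 177 CPM. Their part in the members' values was not tested. By Dixon's ratio no N+F value was far enough from its group to be set apart, the highest ratio being 0.775 for Slc38a3.

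**Figure D2:**
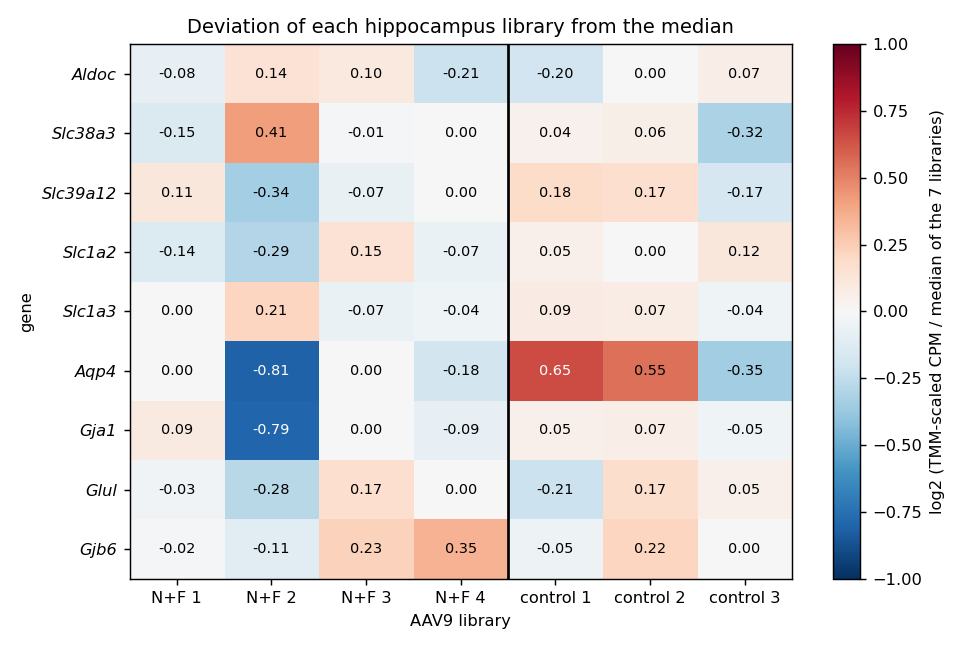
Each cell gives, for a member (row) and a hippocampus library (column, N+F left of the line and control right of it), the log2 ratio of its TMM-scaled CPM to the median of the 7 libraries. The column of N+F library 2 holds the strongest colours, with -0.81 for Aqp4 and -0.79 for Gja1 but 0.41 for Slc38a3, and Aqp4 in control libraries 1 and 2 stands at 0.65 and 0.55.

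Levels can be set against each other per length of transcript, here CPM per kilobase of the exons joined over a gene's transcripts in the GENCODE annotation of GRCm38. Aldoc led with 313 ± 35.0 CPM per kilobase with N+F and 306 ± 28.3 in controls (SD), followed by Glul with 241 ± 30.1 and 248 ± 33.1. The ranges of Aldoc (271 to 347) and Glul (203 to 277) over the 7 libraries overlapped at their edges, and neither met that of the next gene. Slc1a2 followed with 52.8 ± 6.79 CPM per kilobase with N+F and 58.1 ± 2.34 in controls, over an exon length of 12092 bases, and then Slc1a3 with 36.6 ± 3.36 and 36.9 ± 1.74. Gja1 came next, at 14.0 to 25.8 CPM per kilobase over the 7 libraries. Slc38a3 (8.09 to 13.5), Gjb6 (7.05 to 9.69) and Aqp4 (4.89 to 13.5) overlapped, so their order is not fixed by these libraries, and Slc39a12 was the lowest at 2.79 to 4.01. In hippocampus tissue the enzymes of sugar and glutamine metabolism were thus the most abundant members per length, and the transporters for glutamate came after them. The order was not the same in culture, where Aldoc ranked 5 of the 9 per length in both Aβ N+F libraries.

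Genes that share pathways with the members did not pass the tissue test either. Among 30 other astrocyte homeostatic genes 0 passed (median log2 fold change -0.0039, with 15 positive and 15 negative). Among 20 genes of glutamate and glutamine handling 0 passed (median -0.02). Among the endfoot, water and potassium genes 0 of 15 tested passed (median -0.10), among gap junction genes 0 of 11 (median -0.15), among zinc transporters and metallothioneins 0 of 22 (median -0.01) and among genes of glycolysis and lactate export 0 of 22 (median -0.0036). At an unadjusted p under 0.05 these 6 lists held 3, 4, 0, 1, 1 and 3 genes in that order, beside 8.46% of all genes, and DESeq2 called 0 in each, beside 147 of 14009 genes. The smallest p-values belonged to Gad2, the enzyme that makes the transmitter GABA (log2 fold change 0.43 ± 0.13, edgeR adjusted p = 0.303; 108 ± 12.5 CPM with N+F, 80.5 ± 4.56 CPM in controls), and to the zinc importer gene Slc39a8 (0.58 ± 0.18, edgeR adjusted p = 0.363; 32.8 ± 5.55 and 22.0 ± 4.55 CPM). Gabrg1, a GABA receptor subunit, had 0.46 ± 0.16 (edgeR adjusted p = 0.428) and Slc16a1, a lactate transporter gene, -0.43 ± 0.16 (edgeR adjusted p = 0.456). Ldhb, a lactate dehydrogenase subunit gene, had 0.33 ± 0.13 (edgeR adjusted p = 0.504). The dystrophin gene Dmd, whose product anchors endfoot channels, had -0.26 ± 0.14 (adjusted p = 0.674). The second genes by p in the other lists had edgeR adjusted p-values of 0.427 for Gad1 (log2 fold change 0.38), 0.561 for the urea transporter gene Slc14a1 (-0.53), 0.664 for Slc39a7 (-0.22), 0.677 for the junction scaffold gene Tjp1 (-0.24) and 0.733 for the channel gene Trpv4 (-1.04). Markers of inhibitory neurons, the cells that make GABA, had higher point estimates with N+F, but this list of 8 itself holds Gad1 and Gad2. Of the 8 markers 7 had positive fold changes (median 0.43), and 0 passed by edgeR or DESeq2, with 6 at an unadjusted p under 0.05. For 6 of 8, Gad1 and Gad2 among them, all N+F libraries lay above every control library. Beside that, 8.11% of all genes had groups that did not overlap in either direction. The summed level of the 8 was 965 to 1166 CPM with N+F and 741 to 861 CPM in controls. That sum includes Gad1 and Gad2, so it is no separate measure for them. Its part in the value of Gabrg1 was not tested.

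Reactive astrocyte genes, set beside the members as their counterpart, had lower point estimates. The fold changes of all 18 that were tested were negative (median -0.88); 0 passed by edgeR, 11 had an unadjusted p under 0.05 and DESeq2 called 1, C3. This complement gene averaged 8.33 ± 3.22 CPM with N+F and 21.6 ± 5.65 CPM in controls (log2 fold change -1.37 ± 0.28, edgeR adjusted p = 0.151). Emp1, an epithelial membrane protein gene, had -1.58 ± 0.45 (edgeR adjusted p = 0.287). The summed level of the 20 reactive genes ran from 504 to 1214 CPM with N+F and from 1030.0 to 2131 CPM in controls, and that of the 9 members from 2477 to 2864 CPM with N+F and from 2504 to 2776 CPM in controls. Some markers of other cells passed the test. Of 10 genes of hippocampal excitatory neurons 3 fell, Fibcd1, Spink8 and Neurod6, with a list median of -0.57. Of 9 mural and fibroblast genes Col1a1 fell, beside 0.103% of all genes called lower. DESeq2 called 4 of the 10, these 3 and Neurod2, and 3 of the 9, Col1a1, Col1a2 and Col3a1, beside 147 of 14009 genes. None of the 4 edgeR calls held with the replicate block or without any 1 N+F library, settings in which edgeR called 0 genes of all. The summed mural and fibroblast level was 61.1 to 96.4 CPM with N+F and 94.3, 383 and 373 CPM in control libraries 1, 2 and 3. Genes of striatum, a region that a dissection can carry along, summed to 1776 to 2943 CPM with N+F and 535 to 2416 CPM in controls; all 10 had positive fold changes (median 0.92), 0 passed by edgeR, 2 had an unadjusted p under 0.05 and DESeq2 called 1, Rarb. The part of these markers in the members' values was not tested.

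In the Aβ-treated cultures, 8 of the 9 members were lower in N+F glia than in control glia of the same region in both regions, and Gja1 was higher in both. The values are CPM of the library total, the differences are log2 ratios of CPM + 1, and each library is a single sample, so there is no test and the intervals given cover counting error only. Over the 9 members the median ratio was -0.56 in hippocampal and -0.80 in cortical glia, values that include the 3 genes picked for being lower in these columns. Over the 6 members not picked, of which 5 were lower in both regions, it was -0.34 and -0.33, and over all genes with at least 1 CPM in a library it was 0.10 and -0.11. Of those 15487 genes 3249 were lower in both regions and 4305 higher in both. Of 30 other astrocyte homeostatic genes 13 were lower in both and 3 higher in both. The members counted as lower include Slc1a3, whose cortical ratio was 0.06 with TMM scaling, and Gjb6, whose cortical counting interval included 1. Of the members 3 were at least 2-fold lower in both regions, Aldoc, Slc38a3 and Slc39a12, and 0 were at least 2-fold higher in both. Over all genes 0.119% were at least 2-fold lower in both and 2.07% were at least 2-fold higher in both. The rule that picked those 3 genes used this comparison, so nothing is read from their count or from the medians and counts that include them.

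Aldoc had 358 CPM in hippocampal Aβ N+F glia and 753 CPM in the Aβ control, 2.10-fold lower (95% counting interval 2.07 to 2.14). In cortical glia it had 300.5 CPM with N+F and 2081 CPM in the control, 6.93-fold lower (6.83 to 7.02). The N+F levels of the regions were close, and the larger cortical ratio came with a control level well above that of hippocampal glia. Slc38a3 had 153 CPM in hippocampal N+F glia against 335 CPM in the control, and 145 CPM in cortical N+F glia against 429 CPM. These are log2 ratios of -1.13 and -1.55. Slc39a12 had 16.9 CPM against 36.2 CPM in hippocampal and 20.4 CPM against 60.9 CPM in cortical glia (log2 ratios -1.05 and -1.53). Slc39a12 in hippocampal glia lay just inside the 2-fold line, and the nearest member outside it, by the smaller of its ratios, was Glul with -0.39 in hippocampal glia.

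**Figure D3:**
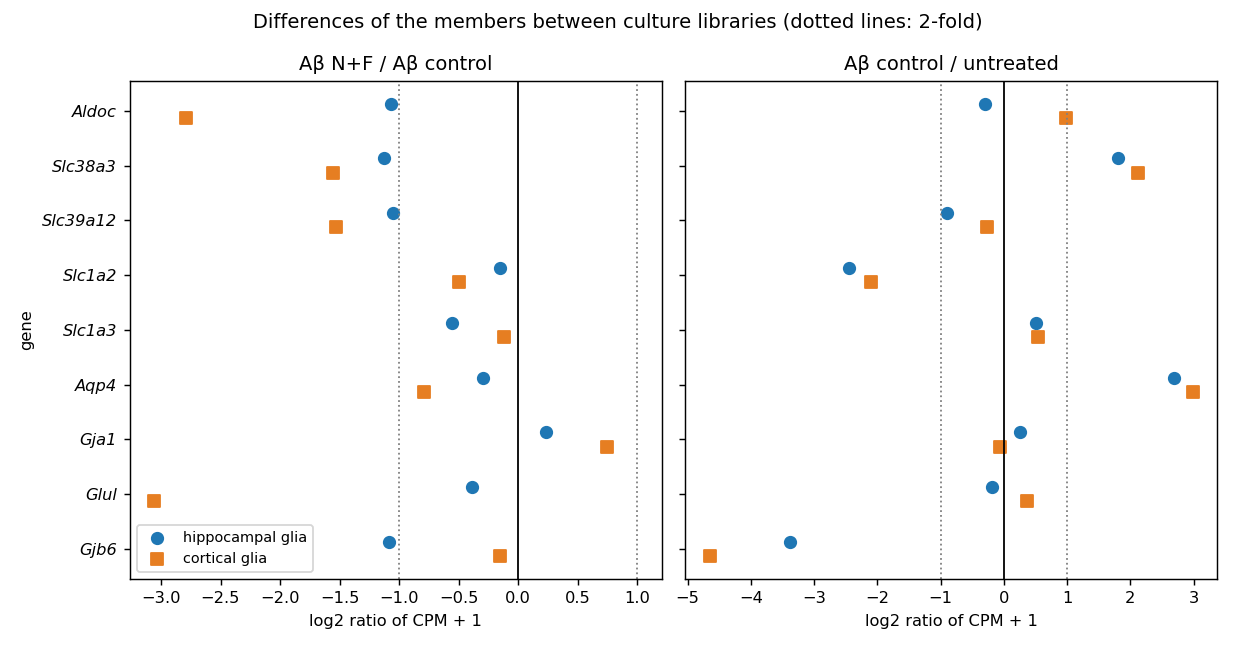
Log2 ratio of CPM + 1 for each member (row), Aβ N+F over Aβ control on the left and Aβ control over untreated on the right, in hippocampal (circles) and cortical glia (squares), 1 library per group; dotted lines mark 2-fold. On the left all points but those of Gja1 lie below 0, with Aldoc and Glul farthest in cortical glia; on the right Slc38a3 and Aqp4 lie above 1 and Slc1a2 and Gjb6 below -1 in both regions.

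Of the other 6 members, Glul and Gjb6 had the widest gaps between regions. Glul had 1159 CPM in hippocampal N+F glia and 1518 CPM in the control, a log2 ratio of -0.39. In cortical glia it had 366 CPM with N+F and 3060.0 CPM in the control, 8.36-fold lower (95% counting interval 8.26 to 8.47), the lowest ratio of any member. Gjb6 was scarce in all 4 Aβ cultures, with 1.54 CPM against 4.38 CPM in hippocampal glia (counts of 93 and 327) and 1.94 CPM against 2.27 CPM in cortical glia (counts of 152 and 138). As a ratio of CPM with no pseudocount it was 2.85-fold lower with N+F in hippocampal glia (2.25 to 3.62), and in cortical glia its counting interval included 1 (1.17-fold lower, 0.923 to 1.48). On the log2 scale of CPM + 1 the hippocampal ratio was -1.08, and it lay under 2-fold with the top line of the symbol (-0.97) and with a pseudocount of 5 CPM (-0.52). Of the 6 members not picked 1 was at least 2-fold lower in each region taken alone, Gjb6 in hippocampal glia, where 0.767% of all genes were, and Glul in cortical glia, where 15.1% were. None of the members was at least 2-fold higher in either region, beside 5.6% and 12.9% of all genes.

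The glutamate transporter genes lay below their control levels by less than 2-fold in both regions. Slc1a2 had 676 CPM with N+F and 753 CPM in the control in hippocampal glia, and 893 CPM and 1262 CPM in cortical glia (log2 ratios -0.16 and -0.50). Slc1a3 had 780.4 CPM and 1151 CPM in hippocampal glia and 1261 CPM and 1373 CPM in cortical glia (-0.56 and -0.12); scaled by TMM the cortical ratio was 0.06. Aqp4 had 1141 CPM and 1403 CPM in hippocampal glia and 899.7 CPM and 1562 CPM in cortical glia (-0.30 and -0.80). Gja1 was the exception in direction, with 435 CPM with N+F against 371 CPM in hippocampal glia and 512 CPM against 305 CPM in cortical glia (0.23 and 0.75). Slc1a2, Slc1a3, Aqp4 and Gja1 thus lay within 2-fold of the control in both regions.

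The cortical Aβ N+F library differed from the others in its cell markers. Its 9 mural and fibroblast genes summed to 8449 CPM, against 148 CPM in the cortical Aβ control, where Vtn, Kcnj8 and Lum were at 0. The collagen genes Col1a1 and Col3a1 had 2894 and 2033 CPM with N+F, against 47.0 and 1.96 CPM in that control. In hippocampal glia the same sum was 338 CPM with N+F and 328 CPM in the control, and Col1a1 had 111 and 110.2 CPM. Oligodendrocyte markers summed to 483 CPM in cortical Aβ N+F glia and 181 CPM in its control, microglia markers to 258 CPM and 135 CPM, and endothelial markers to 103 CPM and 8.51 CPM with Cldn5 at 0 in both. The 30 other astrocyte homeostatic genes summed to 5119.9 CPM with N+F and 8588 CPM in the control in hippocampal glia, and to 7856 CPM and 9019 CPM in cortical glia. The summed level of the 9 members was 4719.7 CPM and 6325 CPM in hippocampal glia and 4399.7 CPM and 10135 CPM in cortical glia. Of the astrocyte markers, Aldh1l1 had 379 CPM with N+F and 490.4 CPM in the control in hippocampal glia and 307 CPM and 501 CPM in cortical glia. The transcription factor gene Sox9 had 201 CPM and 394 CPM in hippocampal glia and 188 CPM and 303 CPM in cortical glia. The part of a changed share of astrocytes or of collagen-rich cells in the members' ratios was not tested.

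**Figure D4:**
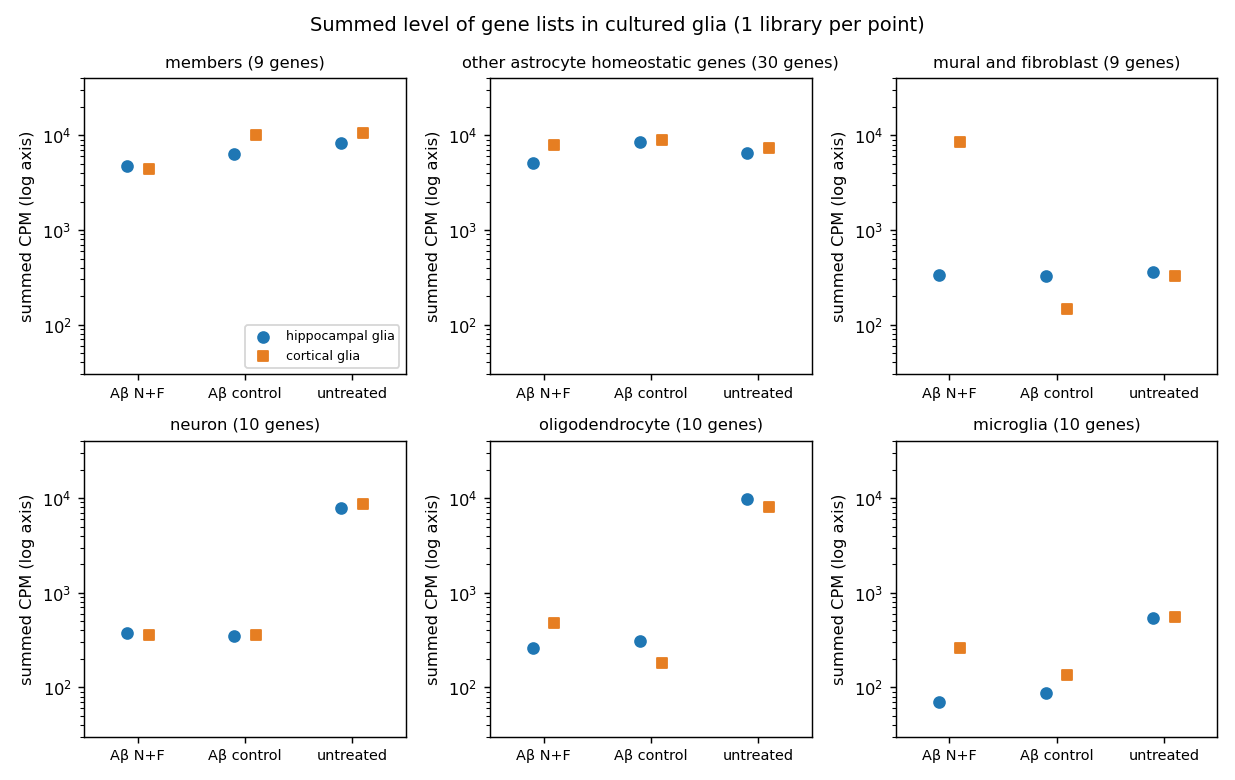
Summed CPM (log axis) of the 9 members and of marker lists in cultured glia, 1 library per point, Aβ N+F, Aβ control and untreated from left to right, hippocampal glia as circles and cortical glia as squares. The cortical Aβ N+F library stands at 8449 CPM for mural and fibroblast genes, and the untreated libraries stand at 7896 to 9704 CPM for neuron and oligodendrocyte genes.

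Between the Aβ control and untreated cultures 4 members differed at least 2-fold in both regions, 2 in each direction. Slc38a3 and Aqp4 were at least 2-fold higher in the Aβ control in both regions, Slc1a2 and Gjb6 at least 2-fold lower in both, and the other 5 lay under 2-fold in both. Over all genes 16.6% were at least 2-fold higher in both regions and 21.5% at least 2-fold lower in both, so 2 of 9 in either direction are near the background. Counted by region, the same 2 were higher, beside 21.0% of all genes in hippocampal and 19.8% in cortical glia, and the same 2 lower, beside 25.6% and 25.4%. Aqp4 had 1403 CPM in the hippocampal Aβ control against 215.5 CPM untreated, and 1562 CPM against 195 CPM in cortical glia (log2 ratios 2.70 and 2.99). Slc38a3 had 335 CPM against 95.5 CPM in hippocampal and 429 CPM against 98.4 CPM in cortical glia (1.80 and 2.11). Slc1a2 had 753 CPM against 4135 CPM in hippocampal and 1262 CPM against 5437 CPM in cortical glia (-2.45 and -2.11). Gjb6 had 4.38 CPM against 54.9 CPM in hippocampal glia, 12.5-fold lower (95% counting interval 11.2 to 14.1), and 2.27 CPM against 81.4 CPM in cortical glia, 35.8-fold lower (30.2 to 42.7). Gja1, the other connexin gene, had 371 CPM against 312 CPM in hippocampal and 305 CPM against 319.7 CPM in cortical glia.

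The remaining members lay closer to the untreated level. Slc1a3 had 1151 CPM in the hippocampal Aβ control against 810.45 CPM untreated, and 1373 CPM against 943 CPM in cortical glia (log2 ratios 0.51 and 0.54). Slc39a12 had 36.2 CPM against 68.4 CPM in hippocampal and 60.9 CPM against 73.2 CPM in cortical glia (-0.90 and -0.26). Aldoc had 753 CPM against 931 CPM in hippocampal and 2081 CPM against 1057 CPM in cortical glia, so the regions had opposite signs. Glul had 1518 CPM against 1736 CPM in hippocampal and 3060.0 CPM against 2366 CPM in cortical glia, again with opposite signs.

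Beside these values, neuron markers summed to 352 CPM in the hippocampal Aβ control and 7896 CPM untreated, and to 355 CPM and 8652 CPM in cortical glia. Oligodendrocyte markers summed to 306 CPM and 9704 CPM in hippocampal and 181 CPM and 8139 CPM in cortical glia. Microglia markers summed to 87.0 CPM and 535 CPM, and to 135 CPM and 558 CPM. Choroid plexus markers summed to 2.78 CPM and 4380.5 CPM in hippocampal and 3.00 CPM and 502 CPM in cortical glia, so the untreated libraries of the regions also differed from each other. In the hippocampus tissue libraries, scaled by TMM, neuron markers summed to 5047 to 7018 CPM and oligodendrocyte markers to 22870 to 32980 CPM. The untreated libraries thus held neuron markers at levels like those of brain tissue, and their values are not those of glia alone. Aβ and the makeup of the culture cannot be told apart here. Both culture comparisons use the same Aβ control libraries, so their ratios are not independent, and the untreated and Aβ N+F cultures differ by both agents.

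**Figure D5:**
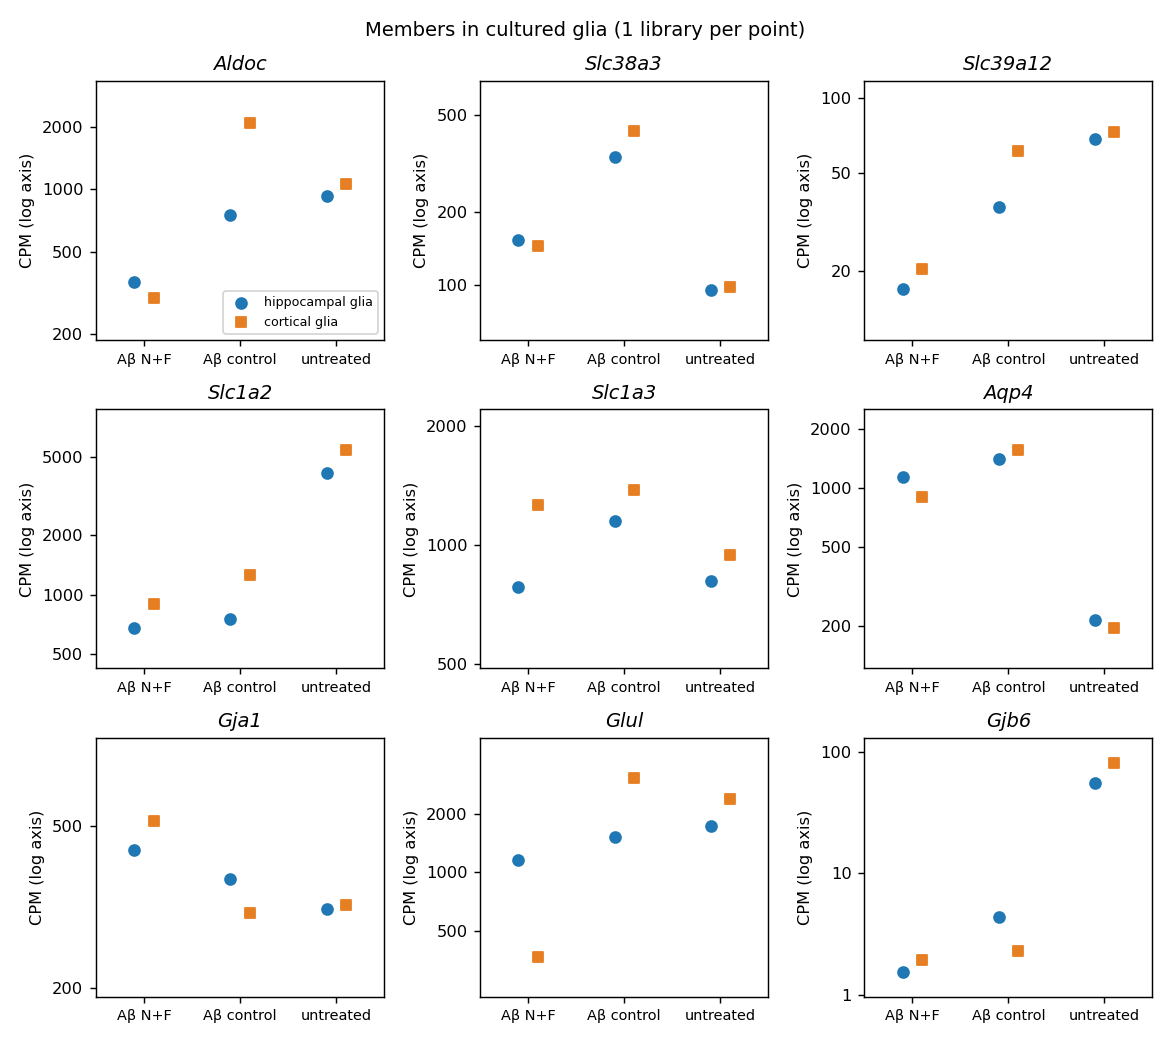
Level of each member in cultured glia (CPM, log axes that differ between panels), 1 library per point, with Aβ N+F, Aβ control and untreated from left to right, hippocampal glia as circles and cortical glia as squares. Aldoc, Slc39a12, Slc1a2, Glul and Gjb6 have their lowest value in Aβ N+F glia in both regions, and Slc38a3 and Aqp4 have their lowest value in the untreated libraries.

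Differences of the members between hippocampal and cortical glia were few, and Glul and Aldoc led them. Neuron markers summed to 7896 and 8652 CPM in the hippocampal and cortical untreated libraries, so their values are not those of glia alone. In these libraries 0 of 9 differed by 2-fold or more between regions, beside 2.30% of all genes lower and 3.17% higher in the hippocampal library. In the Aβ control 2 did, both lower in hippocampal glia: Aldoc with 753 CPM against 2081 CPM in cortical glia (log2 ratio -1.47), and Glul with 1518 CPM against 3060.0 CPM (-1.01). Over all genes 2.13% were lower and 4.17% higher by that fold. In Aβ N+F glia 1 did, Glul, with 1159 CPM in hippocampal glia against 366 CPM in cortical glia (1.66), beside 7.06% of all genes lower and 17.3% higher. The order of the regions for Glul was thus the reverse of that in the Aβ control. TMM scaling moved the median of all genes in this contrast to 0.02, against 0.28 without it, and with it Slc1a3 was also at least 2-fold lower in hippocampal glia. The ratios of Aldoc and Slc38a3 changed sign with that scaling, with -0.07 and -0.24 under TMM against 0.25 and 0.07 without it.

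The culture table lists several lines for some symbols, with no transcript name. Aldoc has 2 lines with counts, which had log2 ratios of -1.07 and -1.06 for N+F over control in hippocampal glia, with -2.78 and -2.95 in cortical glia. The lines of Slc38a3 had -1.11 and -1.23 in hippocampal and -1.59 and -1.01 in cortical glia. Aqp4 was less even. Its 3 main lines of 9 had -0.19, -0.37 and -0.24 in hippocampal glia. In cortical glia they had -1.09, -0.57 and -2.71, and the last of these, with 11.2 CPM with N+F and 79.0 CPM in the control, was more than 2-fold lower while the symbol as a whole was not. For Slc1a2 the main line had -0.58 in cortical glia, and a smaller line 0.84, with 75.9 CPM with N+F and 42.0 CPM in the control.

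Of the pathway lists, few genes differed 2-fold the same way in both regions between N+F and control glia. The counts were 0 in either direction among the 30 other astrocyte genes, the 20 of glutamate and glutamine handling, the 16 of endfoot, water and potassium, the 12 of gap junctions and the 22 of glycolysis and lactate export. The medians of the other astrocyte genes were -0.49 in hippocampal and -0.51 in cortical glia, and those of the 6 members not picked were -0.34 and -0.33. Among 22 zinc genes 1 was higher in both, beside 2.07% of all genes: the importer gene Slc39a8, with 17.5 CPM against 5.45 CPM in hippocampal and 17.6 CPM against 1.73 CPM in cortical glia (log2 ratios 1.52 and 2.77). Its direction was the opposite of that of Slc39a12, the zinc importer gene among the members. Among 20 reactive astrocyte genes 1 was higher in both, Cd109, a membrane protein gene, with 1155 CPM against 328 CPM in hippocampal and 565 CPM against 150 CPM in cortical glia (1.81 and 1.91). The medians of this list had opposite signs, -0.54 in hippocampal and 0.67 in cortical glia. At least 2-fold higher were 1 of 20 in hippocampal and 9 of 20 in cortical glia, beside 5.6% and 12.9% of all genes. At least 2-fold lower were 3 and 2, beside 0.767% and 15.1%. The part of cell makeup in these values was not tested.

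Between the Aβ control and untreated glia the counts of these lists past 2-fold in both regions stand beside 16.6% of all genes for the higher and 21.5% for the lower direction, and nothing is read from a share near these. Of the 30 other astrocyte genes 5 were at least 2-fold higher and 12 lower. Among the lower ones were the amino acid carrier gene Slc7a10 (0.0669 CPM against 66.9 CPM in hippocampal glia), the GABA carrier gene Slc6a11 (2.41 CPM against 208 CPM) and Gabrg1 (0.0535 CPM against 23.9 CPM). Of the 12 gap junction genes 2 were higher and 7 lower, among them the oligodendrocyte connexin genes Gjc3 (0.442 CPM against 90.7 CPM in hippocampal glia) and Gjb1 (0.294 CPM against 18.3 CPM) and the pannexin gene Panx2 (2.25 CPM against 144 CPM). Of the 16 endfoot genes 5 were higher and 3 lower. Dag1, the dystroglycan gene, had 678 CPM against 134 CPM in hippocampal and 696 CPM against 124 CPM in cortical glia, and Mlc1, an endfoot membrane protein gene, had 915 CPM against 201 CPM and 1217 CPM against 224 CPM. The potassium channel gene Kcnj16 was lower, with log2 ratios of -2.83 and -3.90. Of the 22 glycolysis genes 6 were higher and 2 lower. Slc16a1 had 1407 CPM against 50.3 CPM in hippocampal glia (4.78) and 1024 CPM against 43.4 CPM in cortical glia (4.53). Hk2, a hexokinase gene, had log2 ratios of 2.80 and 2.14, and the neuronal enolase gene Eno2 -3.17 and -4.44. Of the 20 glutamate genes 6 were higher and 11 lower, with Gad2 at -6.63 and -6.31 and the glutamate receptor genes Grm5 at -7.00 and -5.43 and Grm3 at -4.89 and -4.95. Of the 22 zinc genes 9 were higher and 4 lower, with Mt2, a metallothionein gene, at 968 CPM against 89.05 CPM in hippocampal glia. The Slc30 family genes Slc30a3 and Slc30a10 had log2 ratios of -6.10 and -4.81 there. Of the reactive genes 18 of 20 were higher and 0 lower, with log2 ratios in hippocampal glia of 11.97 for Lcn2, 11.3 for C3 and 8.36 for Steap4. Neuron markers in these libraries summed to 352 and 355 CPM in the hippocampal and cortical Aβ controls, and to 7896 and 8652 CPM untreated. Oligodendrocyte markers summed to 306 and 181 CPM in the Aβ controls, and to 9704 and 8139 CPM untreated. Aβ and the makeup of the culture cannot be told apart in the values of these lists.

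Genes whose levels followed the members most closely were named by their correlation with the members' mean standardised level, as a description, since libraries share depth and cell makeup. Over the 7 tissue libraries and 9490 genes with a mean of at least 10 CPM these were Tmem109 and Rbm4b (Pearson r = 0.987 each), Gatc (0.956), Pvalb (0.955) and Lhpp (0.952). Over the 6 culture libraries and 10937 genes they were Tmem135 (0.964), Rab4a (0.955), 3830406C13Rik (0.948), Eepd1 (0.919) and Akr1e1 (0.914). The members themselves followed their own mean less evenly. In tissue r ran from -0.321 for Slc1a3 to 0.818 for Aqp4, and in culture from -0.801 for Gja1 to 0.952 for Aldoc.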

How the data were processed

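Gene expression was measured by RNA sequencing in 7 hippocampus and 6 glia libraries. The authors deposited counts per gene symbol. Per the labels' protocols, Trizol was used to extract the RNA, of which 1.3 µg entered the SMARTER kit. TopHat, HISAT2 and edgeR are named without versions in the submitters' processing notes, as is hg19, a human build, while the symbols are those of mouse. The build is thus not established, and no coordinates were taken from the tables. Whether counting used strand is not stated there. Lines of a symbol were summed (44 repeats of 23282 lines in tissue, 12238 of 36780 in culture), and if reads were counted in several lines, levels are overstated. Each column matched a sample title. Groups came from the titles.

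Tissue was tested with edgeR 4.0.16 in R 4.3.3 (quasi-likelihood, filterByExpr, TMM factors 0.895 to 1.11, two-sided, adjusted over 15523 genes, threshold 0.05, biological coefficient of variation 0.206), with DESeq2 1.42.0 as an alternative. Simulated data were used to test the fit. Culture had 1 library per group and no test: log2 ratios of CPM + 1 for genes reaching 1 CPM in a library of each pair, with exact 95% conditional binomial intervals of the ratio that cover counting error only. The chi-square per gene between replicates, 15.0 to 56.1, was above counting noise, so no pair was counted as 1 sample; whether libraries share an animal or RNA is not shown by this. Same-numbered tissue libraries did not deviate together (r = -0.0058, -0.102 and 0.152), and the numbers were not used as pairs. Other settings tried were the scaling, the filter, the pseudocount, the fold, the line of a symbol and each library left out. Named genes were all 9 members, per list those past the tissue test or otherwise the 2 with the smallest p, in culture the 3 with the largest ratios among those at least 2-fold changed the same way in both regions and reaching 10 CPM, and the 5 most correlated genes; a gene of that rule is not reported here. Members and lists were chosen with earlier results of these data known. Promoter windows came from RefSeq.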

Additional observations from a re-analysis of the deposited data

Results flagged for a closer look

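For 3 members the Aβ control lay on opposite sides of the untreated library in the regions. Aldoc had a log2 ratio of -0.31 in hippocampal and 0.98 in cortical glia, Gja1 of 0.25 and -0.068, and Glul of -0.19 and 0.37. Each value rests on 1 library per group, and the difference between the regions was not tested. Neuron markers of the same libraries summed to 352 and 7896 CPM in hippocampal and to 355 and 8652 CPM in cortical glia (Aβ control and untreated), and choroid plexus markers to 2.78 and 4380.5 CPM and to 3.00 and 502 CPM. The part of the makeup of the cultures in these signs was not tested.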

How the results depend on the processing

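The count of members past the tissue test was 0 under all 12 alternatives. Directions near 0 were less firm. The replicate block on libraries 1 to 3 (N+F library 4 left out) turned Slc1a3 to 0.0076 and Gjb6 to -0.019, and it called 0 genes of all, with 1541 at an unadjusted p under 0.05. With 1 library left out, the log2 fold change ran from -0.049 to 0.095 for Aldoc, from -0.077 to 0.025 for Slc1a3, from -0.15 to 0.049 for Glul and from -0.015 to 0.15 for Gjb6. Over all genes, edgeR called 17, DESeq2 147, and edgeR without a filter 29. With 1 library left out the calls ran from 0 to 29: 29 without control 1, 3 without control 2, 1 without control 3 and 0 without any 1 N+F library. In culture, the members at least 2-fold lower with N+F in both regions numbered 3, and 2 with a pseudocount of 5 CPM, which removed Slc39a12. Between regions, Aβ N+F glia had 2 members past the fold with TMM scaling and with a fold of 1.5, against 1, and Aβ control glia had 5 with a fold of 1.5, against 2. Taking each region alone, an alternative chosen after seeing the data, gave 4 members lower with N+F in either region, of which 3 were picked on these columns, and 2 lower and 2 higher in the Aβ control. Each culture ratio of a member was also taken under each alternative scaling, pseudocount and line of a symbol. Of these values 66 lay beyond the counting interval of the ratio, computed without a pseudocount, and 186 did not. Sign changes numbered 3, all under TMM. Culture groups of 1 library have no replicate error.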
